A study of Mus musculus with 4 samples.

Results

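The 10 genes described here are Yap1 and Wwtr1, which encode the transcriptional coactivators YAP and TAZ, the 4 TEAD transcription factor genes Tead1, Tead2, Tead3 and Tead4, and the mechanosensitive target genes Ccn1, Ccn2, Ankrd1 and Amotl2. They were taken by name among 21887 genes that RefSeq lists as protein-coding in GRCm38.p6. No measured value was used in the choice, although earlier results of these data were known when it was made. Their regions are the peaks of chromatin accessibility that lie in a gene or within 50 kb of it, which merged into 257 of the 170558 sites of the genome. The chromatin came from chondrocytes of the knee cartilage of C57BL/6 mice aged 0 to 4 days after birth. Passage 0 (P0) cells had been in culture for less than a day, and passage 8 (P8) cells had been replated serially in serum-containing medium, each time after the cells had doubled, as a model of chondrocyte dedifferentiation. Accessibility was measured by ATAC-seq, in which the Tn5 transposase cuts and tags open DNA, in 2 libraries per passage. No genotype or treatment other than passage separated the groups. The labels do not say whether the 2 libraries of a passage came from separate mice or cultures, so every p-value measures only the spread between these libraries, which may be technical. In bulk chromatin, fewer cells of a type and less open chromatin per cell cannot be told apart.

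YAP and TAZ are coactivators without a DNA-binding domain of their own, and they reach most of their genomic sites through the TEAD proteins. In the Hippo pathway the MST kinases activate the LATS kinases, which phosphorylate YAP and TAZ and keep them in the cytoplasm. Spreading on a stiff substrate and actin tension instead favour the entry of YAP and TAZ into the nucleus. Chondrocytes are rounded in cartilage and spread when plated on plastic, a setting in which YAP and TAZ have been studied. Ccn1 and Ccn2 encode secreted matricellular proteins, Ankrd1 a cardiac ankyrin repeat protein and Amotl2 an angiomotin that binds YAP and restrains it.

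The sequences that TEAD proteins would have to meet are shown first, because a TEAD motif was found before the start site of most of these genes. RefSeq promoter entries (GRCm38.p6) were matched for 7 of the 10 genes, namely Yap1, Wwtr1, Tead2, Tead3, Ccn1, Ankrd1 and Amotl2. The TEAD motif, searched as GGAATG on both strands, was present in the 250 bases before the start site in 6 of these 7 promoters, all but Tead2, and in 12.6% of all 32851 promoters of the table. The AP-1 motif, searched as TGANTCA, and the CArG box of serum response factor were in none of the 7, against 6.75% and 1.47% of all promoters. A match is a run of letters and does not show that a protein binds there. The 4 windows below lie outside the gene in RefSeq, are written 5′ to 3′ along the gene's strand (the minus strand in each case) and end at the base before the start site, with the TEAD motif in capitals. They are Ccn1 (chr3:145649986-145650235), Ankrd1 (chr19:36119845-36120094), Wwtr1 (chr3:57575911-57576160) and Tead3 (chr17:28350806-28351055).
Ccn1: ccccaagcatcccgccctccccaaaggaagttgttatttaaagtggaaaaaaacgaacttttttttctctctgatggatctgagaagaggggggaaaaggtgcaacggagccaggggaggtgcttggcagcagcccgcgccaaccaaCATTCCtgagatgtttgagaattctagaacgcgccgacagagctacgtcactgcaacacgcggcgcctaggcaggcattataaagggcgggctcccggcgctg
Ankrd1: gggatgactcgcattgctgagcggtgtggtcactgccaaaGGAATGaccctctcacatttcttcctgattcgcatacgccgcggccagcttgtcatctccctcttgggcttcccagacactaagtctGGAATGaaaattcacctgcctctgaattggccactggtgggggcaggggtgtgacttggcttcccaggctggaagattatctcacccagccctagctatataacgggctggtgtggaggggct
Wwtr1: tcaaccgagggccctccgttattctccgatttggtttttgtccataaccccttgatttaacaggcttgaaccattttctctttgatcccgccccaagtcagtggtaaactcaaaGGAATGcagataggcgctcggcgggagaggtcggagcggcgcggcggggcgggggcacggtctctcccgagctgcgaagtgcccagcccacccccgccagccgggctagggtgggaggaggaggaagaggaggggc
Tead3: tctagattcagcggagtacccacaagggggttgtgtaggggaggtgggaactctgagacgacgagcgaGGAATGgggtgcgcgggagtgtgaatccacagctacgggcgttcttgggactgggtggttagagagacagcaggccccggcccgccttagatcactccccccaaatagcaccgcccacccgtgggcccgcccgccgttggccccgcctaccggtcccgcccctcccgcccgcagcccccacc
The motif began 103 bases before the start site in Ccn1, 210 and 123 bases before it in Ankrd1, 136 bases before it in Wwtr1 and 182 bases before it in Tead3. In Wwtr1 and Tead3 it lay under a peak in all 4 libraries, and so did the motifs of Yap1 (141 bases before the start site) and Amotl2 (65 bases before it). In Ccn1 the start site was under a peak in all 4 libraries, but only the peak of P0 library B reached the motif. In Ankrd1 the farther motif lay under a peak of P8 library B alone, and the nearer one lay under no peak in any library.

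The peak caller had been run on each library separately, and the libraries of a passage are called A and B because the peak names carry no replicate number. Each peak comes with its pileup, the tags stacked at its summit, and its fold enrichment, the ratio of that pileup to the local background with 1 tag added to both. Between 88578 and 144356 peaks per library lay on the 21 chromosomes used. The genome-wide background, a measure of depth, ran from 162 to 194 tags per 10 kb at P0 and from 134 to 140 at P8, so the P0 libraries were the deeper ones. Chondrocyte marker genes were accessible in both passages, with a peak in or within 1 kb of 9 of 9 markers in each P0 library and of 8 of 9 in each P8 library, where Matn1 had none. The summed tag density of these 9 genes (defined below) was 98.5 and 95.0 in the P0 libraries, against 36.1 and 43.1 in those of P8. For 7 fibroblast markers it was 20.6, 17.5, 18.5 and 21.6 in the order A and B of P0, then A and B of P8. For 6 macrophage and blood markers it was 9.81, 8.90, 6.42 and 5.59, and for 6 endothelial markers 5.78, 6.86, 4.11 and 4.10. In the macrophage and blood set Cd68 had 4.57 and 3.98 at P0 and no peak at P8. Spi1 had 1.92, 1.81, 1.70 and 1.62, whereas Csf1r had 1.33, 1.11, 1.72 and 1.97. Ptprc and Lyz2 stood at 1 throughout, and Adgre1 had a peak in P8 library A alone. Endothelial values were at most 1.71, and the sums largely follow the 5, 6, 4 and 4 markers with a peak. The part of these cell types in the results below was not tested. All series of 4 values below follow this order of libraries.

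The 10 genes together held 222 and 202 peaks at P0 and 144 and 164 at P8. Both P0 libraries were above both P8 libraries, a ratio of 1.38 ± 0.16 (SD propagated from 2 libraries per passage). The exact two-sided permutation test gave p = 0.333, the smallest value that 2 libraries against 2 allow. For all peaks of the genome the ratio was 1.41 ± 0.22, and the 10 genes held 0.154, 0.170, 0.163 and 0.166% of all peaks of the 4 libraries. With only those peaks that the shallowest library could also have yielded (pileup and local background scaled to its genome-wide background), the genes held 198 and 193 peaks at P0 and 144 and 164 at P8. Within 1 kb of an end of these genes lay 23, 23, 23 and 25 peaks. Of these, 1, 2, 3 and 5 were at Yap1, where they merged into a single site, so the even totals rest in part on that gene. No such count over all genes is given here.

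Of the 257 sites near the genes, 91 (35.4%) held a peak in all 4 libraries, where 32.4% of all sites of the genome did. Another 37 sites (14.4%) held a peak in both P0 libraries and in no P8 library, against 17.1% of all sites. In the opposite class, with a peak in both P8 libraries and in no P0 library, were 9 sites (3.50%), against 1.82% of all sites, but 5 of the 9 stood together at 1 place near Tead1. Of the rest, 58 sites had a peak in 1 P0 library only, 18 in 1 P8 library only, and 44 in 2 or 3 libraries across both passages. The strength of a site is given as its mean fold enrichment over the libraries that hold it, and by this measure each gene has a strongest site below, although in single libraries another site could be higher. The sites held by all 4 libraries were the strongest and widest, with a median of 7.23 for the mean fold enrichment and a median width of 519 bp. The sites of both P0 libraries alone had 4.64 and 233 bp, and the 9 sites of both P8 libraries alone had 4.78 and 173 bp. A gene end was within 1 kb for 3 of the 37 P0-only sites and for none of the P8-only ones.

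**Figure D1:**
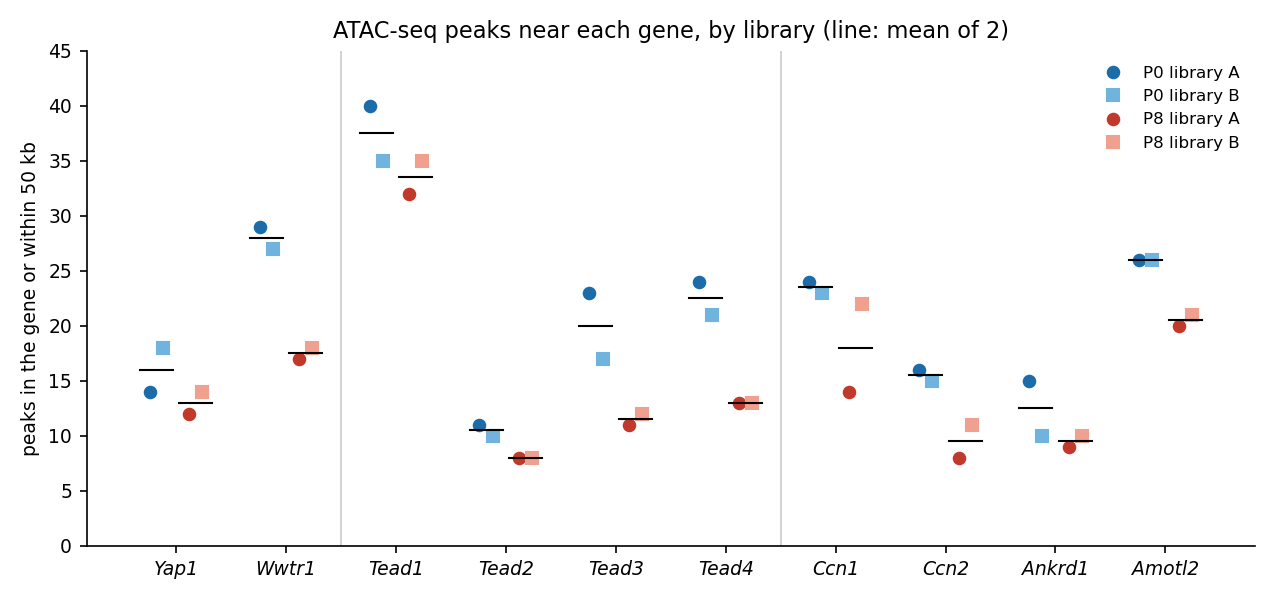
Number of peaks in each gene or within 50 kb of it (vertical axis) for the 10 genes (horizontal axis), with 1 point per library and a line at the mean of the 2 libraries of a passage. Both P0 libraries lay above both P8 libraries at 7 genes, with the widest ratio at Tead3 (23 and 17 against 11 and 12 peaks), and the passages overlapped at Yap1, Tead1 and Ankrd1.

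By gene, the peak number of each P0 library exceeded that of each P8 library at 7 of the 10 genes, beside 50.7% of the 18605 genes tested, and P8 was above P0 at none, beside 3.01% of all genes. A limma fit over the log2 number of peaks per gene, centred on the median gene of each library, called none of the 10 genes at a Benjamini-Hochberg adjusted p under 0.05, while it called 8.4% of all genes lower and 2.32% higher at P8. At an unadjusted p under 0.05 it held 3 of the 10, namely Tead4, Tead3 and Wwtr1, all lower at P8, beside 24.5% of all genes in either direction and 16.4% lower. These counts depended on the settings. Without the filter on genes with few peaks 868 genes were called lower and 1500 higher, where the filtered fit had 1563 and 432, and without centring, with quantile normalization, in windows of 10 kb or with any 1 library left out none was called. Fold enrichment could be compared at the 91 sites held by all 4 libraries. Both P0 values were above both P8 values at 50 of these 91 sites, beside 49.9% of all such sites in the genome. Both P8 values were above both P0 values at 10 of the 91, beside 11.6% of all such sites. A limma fit of log2 fold enrichment over all 55294 such sites, centred on the median site of each library, called 3 of the 91 sites lower at P8 (3.76% of all sites) and 6 higher (6.23% of all sites). Without centring the same fit called 13 lower (11.8% of all sites) and 2 higher (1.07% of all sites), with the median site of the genome at −0.20 on the log2 scale. The members' shares of calls were close to those of the genome under both scalings. All changes of fold enrichment given below are log2 differences, P8 minus P0, relative to the median site.

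**Figure D2:**
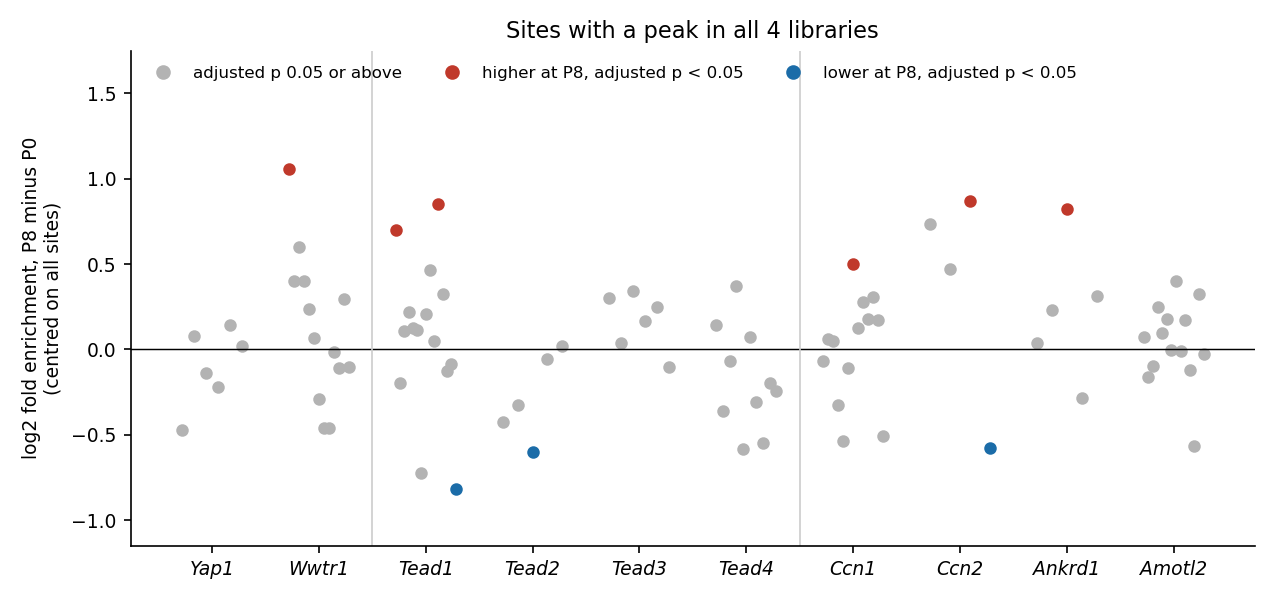
Log2 difference in fold enrichment, P8 minus P0 and centred on the median of all sites in each library (vertical axis), for the 91 sites held by all 4 libraries, arranged within each gene by position (horizontal axis). The 6 sites in red were higher and the 3 in blue lower at P8 in the limma fit, and the largest difference was 1.06 at Wwtr1.

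Yap1, the coactivator gene of YAP, spans chr9:7931999-8004638 on the minus strand. It held 14, 18, 12 and 14 peaks in the 4 libraries, so the passages overlapped in peak number (centred log2 difference 0.03, SE 0.18, limma adjusted p = 0.934). Of these, 1, 2, 3 and 5 peaks lay within 1 kb of a gene end and merged into a single site, that of the start site. The overlap therefore rests in part on more peaks being called within this site at P8. The start site lay under a peak in every library (chr9:8003354-8005027), with fold enrichments of 6.10, 6.79, 6.24 and 5.56. The strongest site of all 10 genes on this scale was 17013 bp downstream of Yap1 (chr9:7914433-7914986), at 17.0, 16.0, 13.6 and 15.3. Neither site was called by limma (adjusted p = 0.698 and 0.733). Beside the strongest site stood a weak one held by P0 alone (chr9:7914210-7914391, 3.35 and 3.18), and another P0-only site lay 2069 bp downstream of the gene (chr9:7929672-7929930, 7.44 and 5.61). Inside the gene 2 further P0-only sites, at chr9:7968751-7968852 (5.13 and 4.35) and chr9:7979745-7980026 (4.13 and 7.14), faced 1 P8-only site at chr9:7953156-7953288 (4.28 and 5.29).

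Wwtr1, the gene of TAZ, spans chr3:57455644-57575910 on the minus strand and held 29, 27, 17 and 18 peaks. Both P0 libraries were above both P8 libraries (centred log2 difference −0.34, SE 0.15, limma adjusted p = 0.131). Most of its sites, 25 of 33, lay inside the gene, and 5 sites were held by both P0 libraries alone, while none was held by both P8 libraries alone. Those 5 had fold enrichments between 3.66 and 8.04, with the strongest inside the gene at chr3:57535816-57536101 (8.04 and 6.79), followed by chr3:57448520-57448752 (7.30 and 7.32), chr3:57542083-57542344 (7.07 and 7.14), chr3:57564891-57565049 (4.55 and 4.12) and chr3:57493193-57493355 (4.97 and 3.66). The start site, with its TEAD motif, stayed under a strong peak in every library (chr3:57574877-57576564), at 7.04, 7.24, 7.07 and 7.42 (limma adjusted p = 0.335). The strongest site of the gene, inside it at chr3:57470302-57471296, stood at 9.87, 9.33, 9.98 and 11.1 (adjusted p = 0.106). Another site inside the gene (chr3:57521893-57522179) was higher in both P0 libraries, at 12.2 and 11.0 against 6.43 and 9.60 at P8 (adjusted p = 0.308). One distant site rose. It lies 43624 bp downstream of Wwtr1 (chr3:57411427-57412020), closer to Tm4sf4, a tetraspanin-like membrane protein gene, and had fold enrichments of 4.55 and 5.49 at P0 and of 8.90 and 8.35 at P8 (log2 difference 1.06, SE 0.20, limma adjusted p = 0.00539). Its summit pileups were 10 and 11 tags at P0 and 17 and 16 at P8, although the P8 libraries were the shallower ones.

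Among the DNA-binding partners, Tead1 (chr7:112679356-112906784) was the longest gene and held the most peaks, 40, 35, 32 and 35, with the passages overlapping (centred log2 difference 0.15, SE 0.14, limma adjusted p = 0.535). The end of the gene with the lower coordinate lay under a peak in every library (chr7:112678511-112680164), at 7.18, 8.09, 7.48 and 6.18 (adjusted p = 0.778). This site held 2, 3, 4 and 3 peaks, each counted in the peak number, so overlap in that number need not mean overlap in the number of sites. The strongest site was inside the gene at chr7:112720066-112720684, at 14.2, 14.4, 13.2 and 14.2 (adjusted p = 0.319). Tead1 held 6 of the 9 P8-only sites of the 10 genes and 6 of the 37 P0-only sites. Singled out after its values were seen, a group of 5 of the P8-only sites stood together between 40323 and 41903 bp beyond the lower end of the gene (chr7:112637280-112639033). Their fold enrichments were between 4.33 and 5.07, with summit pileups of 9 to 12 tags in both P8 libraries, and Tead1 was their nearest gene. The P0-only sites at Tead1 with the highest fold enrichment were chr7:112955053-112955322 in the neighbouring gene Rassf10 (5.75 and 5.18), and chr7:112793644-112794147 (5.22 and 5.49) and chr7:112855118-112855338 (5.30 and 5.28) inside Tead1.

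**Figure D3:**
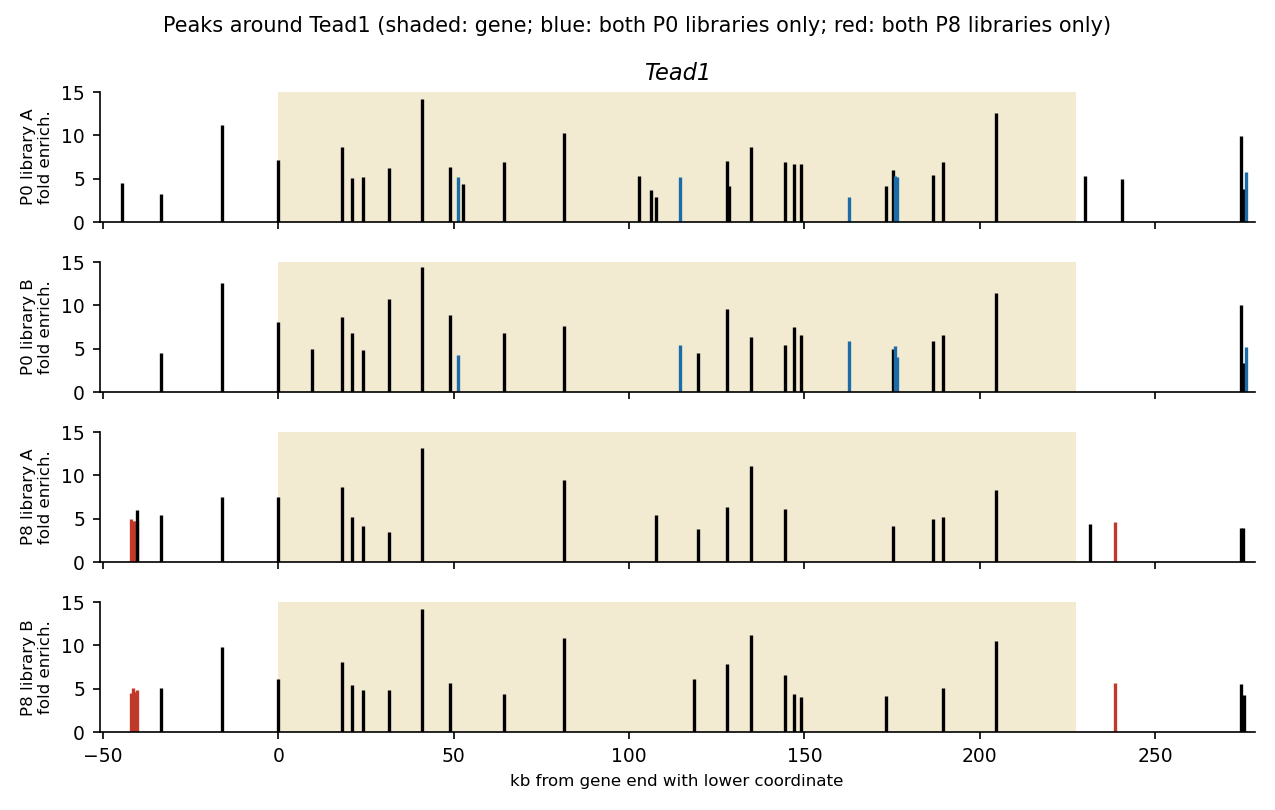
Fold enrichment of each peak (vertical axis) in the 4 libraries (rows) by distance in kb from the end of Tead1 with the lower coordinate (horizontal axis), with the gene shaded, P0-only sites in blue and P8-only sites in red. The 5 clustered P8-only sites stand at the left edge in the 2 lower rows, and the strongest peak inside the gene, between 13.2 and 14.4, is present in all rows.

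Of the 15 Tead1 sites held by all libraries, 2 rose and 1 fell. Inside the gene, chr7:112813853-112814180 had 8.69 and 6.41 at P0 and 11.1 and 11.2 at P8 (log2 difference 0.85, SE 0.18, limma adjusted p = 0.00825). The other site that rose, 33376 bp from the gene (chr7:112645839-112645980), had 3.31, 4.58, 5.44 and 5.05, and this call was near the threshold (adjusted p = 0.0396). The site that fell lay 46929 bp away within Rassf10 (chr7:112953713-112954108). It had 9.99 and 10.0 at P0 and 4.00 and 5.53 at P8 (log2 difference −0.82, SE 0.20, adjusted p = 0.0152).

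Tead2 (chr7:45215792-45233468, plus strand) lies among many other genes, and only 2 of its 12 sites were in it or nearest to it. It held 11, 10, 8 and 8 peaks (centred log2 difference −0.05, SE 0.22, limma adjusted p = 0.923). Its start site was under a peak in every library (chr7:45215618-45216315), at 7.88, 6.97, 5.66 and 6.17 (adjusted p = 0.885), although no TEAD motif was found in its promoter. The strongest site, 33229 bp upstream (chr7:45182167-45182563), stood at 12.9 and 13.9 at P0 and at 8.22 and 8.29 at P8 without being called (adjusted p = 0.0858). A site 10876 bp upstream within Kash5 (chr7:45204367-45204916) had 9.93 and 11.0 at P0 and 4.94 and 6.57 at P8 and was called lower (log2 difference −0.60, SE 0.19, adjusted p = 0.0478). The 3 P0-only sites near Tead2 all lay in neighbouring genes, namely chr7:45188697-45188817 (4.24 and 4.57) and chr7:45189650-45190005 (4.82 and 4.38) in Kash5 and chr7:45241099-45241279 (3.73 and 4.58) in Slc6a16.

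Tead3 (chr17:28331671-28350805, minus strand) held 23, 17, 11 and 12 peaks and Tead4 (chr6:128227143-128300813) 24, 21, 13 and 13. These 2 genes had the largest ratios of P0 to P8 among the 10, 1.74 and 1.73, and in the limma fit their centred log2 differences were −0.43 (SE 0.17, adjusted p = 0.0921) and −0.44 (SE 0.16, adjusted p = 0.0657). None of their sites held by all 4 libraries was called. The start site of Tead3 was under a peak in every library (chr17:28350021-28351270), at 7.09, 7.95, 5.12 and 6.54 (adjusted p = 0.774), and the end of Tead4 with the higher coordinate (chr6:128299886-128301039) at 7.67, 9.20, 7.75 and 6.94 (adjusted p = 0.840). The strongest sites lay outside these 2 genes and overlapped neighbouring ones. They were in Fance for Tead3 (chr17:28312969-28314194, at 11.7, 12.4, 11.3 and 9.24) and in Tulp3 for Tead4 (chr6:128338843-128339314, at 12.5, 14.1, 10.2 and 8.98). Each gene had 5 P0-only sites. At Tead3 these were weak, from 2.88 to 5.47, and 1 of them lay in the gene (chr17:28332023-28332136, 2.88 and 3.44). The others were chr17:28288076-28288304, chr17:28290261-28290589, chr17:28308460-28308677 and chr17:28391737-28392312. At Tead4 they ranged from 3.45 to 5.95, and 3 of them lay in the gene, at chr6:128244239-128244492, chr6:128268933-128269387 and chr6:128296280-128296367, while chr6:128179386-128179524 and chr6:128183726-128184000 lay beyond its lower end. The strongest P8-only site of all 10 genes was 20001 bp upstream of Tead3 and nearest to Tulp1 (chr17:28370806-28371050), at 8.79 and 8.34 with summit pileups of 21 and 20 tags.

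Among the targets, Ccn1 (chr3:145646971-145649985, minus strand) and Amotl2 (chr9:102717091-102733418, plus strand) had the densest surroundings of the 10 genes. Per 100 kb of window they held 22.8 and 22.4 peaks on average at P0 and 17.5 and 17.6 at P8, against 6.80 to 16.8 for the other 8 genes in either passage. Ccn1 held 24, 23, 14 and 22 peaks and Amotl2 26, 26, 20 and 21, and neither gene was called (centred log2 differences −0.09, SE 0.16 and −0.02, SE 0.15, limma adjusted p = 0.770 and 0.942). The start site of Ccn1 was under a narrow peak of low fold enrichment in every library (chr3:145649813-145650109), at 2.51, 2.84, 2.50 and 2.32 (adjusted p = 0.576), while its summit pileups, 59, 50, 33 and 36 tags, were high. The start site of Amotl2 stood at 5.05, 5.12, 5.23 and 4.82 (chr9:102717177-102718087, adjusted p = 0.446) with pileups of 77, 62, 45 and 47 tags. The strongest sites were distant, 31717 bp downstream of Ccn1 (chr3:145614266-145615254, at 10.2, 10.5, 8.46 and 9.29) and 43195 bp upstream of Amotl2 (chr9:102673210-102673896, at 14.9, 15.2, 14.1 and 12.2).

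Ccn1 had 2 P0-only sites, chr3:145639011-145639221 (3.01 and 3.84) and chr3:145684330-145684565 (3.31 and 3.21). A site 1320 bp downstream of Ccn1 (chr3:145645358-145645651) was called higher at P8, at 2.35, 2.37, 2.82 and 2.72 (log2 difference 0.50, SE 0.12, limma adjusted p = 0.0168), but its pileup over the genome-wide background of its library did not pass the same fit (adjusted p = 0.0956). Amotl2 had 3 P0-only sites, chr9:102682293-102682464 (3.91 and 6.03), chr9:102699611-102699856 (5.15 and 5.48) and, just behind the start site, chr9:102718268-102718504 (2.53 and 2.57). Its P8-only site lay 1964 bp downstream (chr9:102735382-102735532, 2.57 and 2.97), with summit pileups of 26 and 34 tags. None of the 14 Amotl2 sites held by all libraries was called.

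Ccn2 (chr10:24595442-24598683) held 16, 15, 8 and 11 peaks, with P0 above P8 (centred log2 difference −0.36, SE 0.19, limma adjusted p = 0.226). The end with the lower coordinate was under a peak in every library (chr10:24595296-24596090), at 4.16, 4.34, 4.64 and 5.14 (adjusted p = 0.114). A second site inside the gene (chr10:24596315-24596999) had 2.30 and 2.11 at P0 and 3.57 and 3.12 at P8 and was called higher (log2 difference 0.87, SE 0.14, adjusted p = 0.00232). Here the summit itself did not move in step. The pileup over the genome-wide background was 28.3, 24.5, 28.4 and 29.6, which did not pass the same fit (adjusted p = 0.0580), while the local background around the site was 11.9 and 11.2 times the genome-wide one at P0 and 7.23 and 8.81 times at P8. At the opposite end of the gene a site was held by P0 alone (chr10:24598825-24599120, 2.26 and 2.80), with pileups of 37 tags in both libraries. The second P0-only site lay 37253 bp away (chr10:24635936-24636360, 5.80 and 8.45). The strongest Ccn2 site, 49691 bp away within Enpp1, a pyrophosphate-producing ectoenzyme gene (chr10:24648374-24648840), had 14.5 and 16.5 at P0 and 6.92 and 10.6 at P8 and was called lower (log2 difference −0.58, SE 0.17, adjusted p = 0.0363).

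Ankrd1 (chr19:36111965-36119844, minus strand) had the least accessible gene body and start site of the 4 targets. It held 15, 10, 9 and 10 peaks in its window (centred log2 difference −0.03, SE 0.20, limma adjusted p = 0.938), but only 1, 1, 0 and 0 in the gene. That P0-only peak (chr19:36117839-36117954) had 5.38 and 5.03, with pileups of 12 and 10 tags. A second P0-only site lay 727 bp downstream of the gene (chr19:36111046-36111238, 5.01 and 4.12). The promoter had a peak in P8 library B alone, 163 bp upstream of the start site (chr19:36120007-36120084), with a fold enrichment of 5.05 and a pileup of 9 tags. Downstream of the gene by 1134 bp, a site held by all libraries rose from 6.02 and 5.95 at P0 to 8.30 and 9.29 at P8 (chr19:36110103-36110831, log2 difference 0.83, SE 0.19, adjusted p = 0.0110). The strongest site, at 9.12, 9.83, 7.35 and 8.84, lay 28053 bp downstream and nearest to Rpp30 (chr19:36082970-36083912, adjusted p = 0.910).

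**Figure D4:**
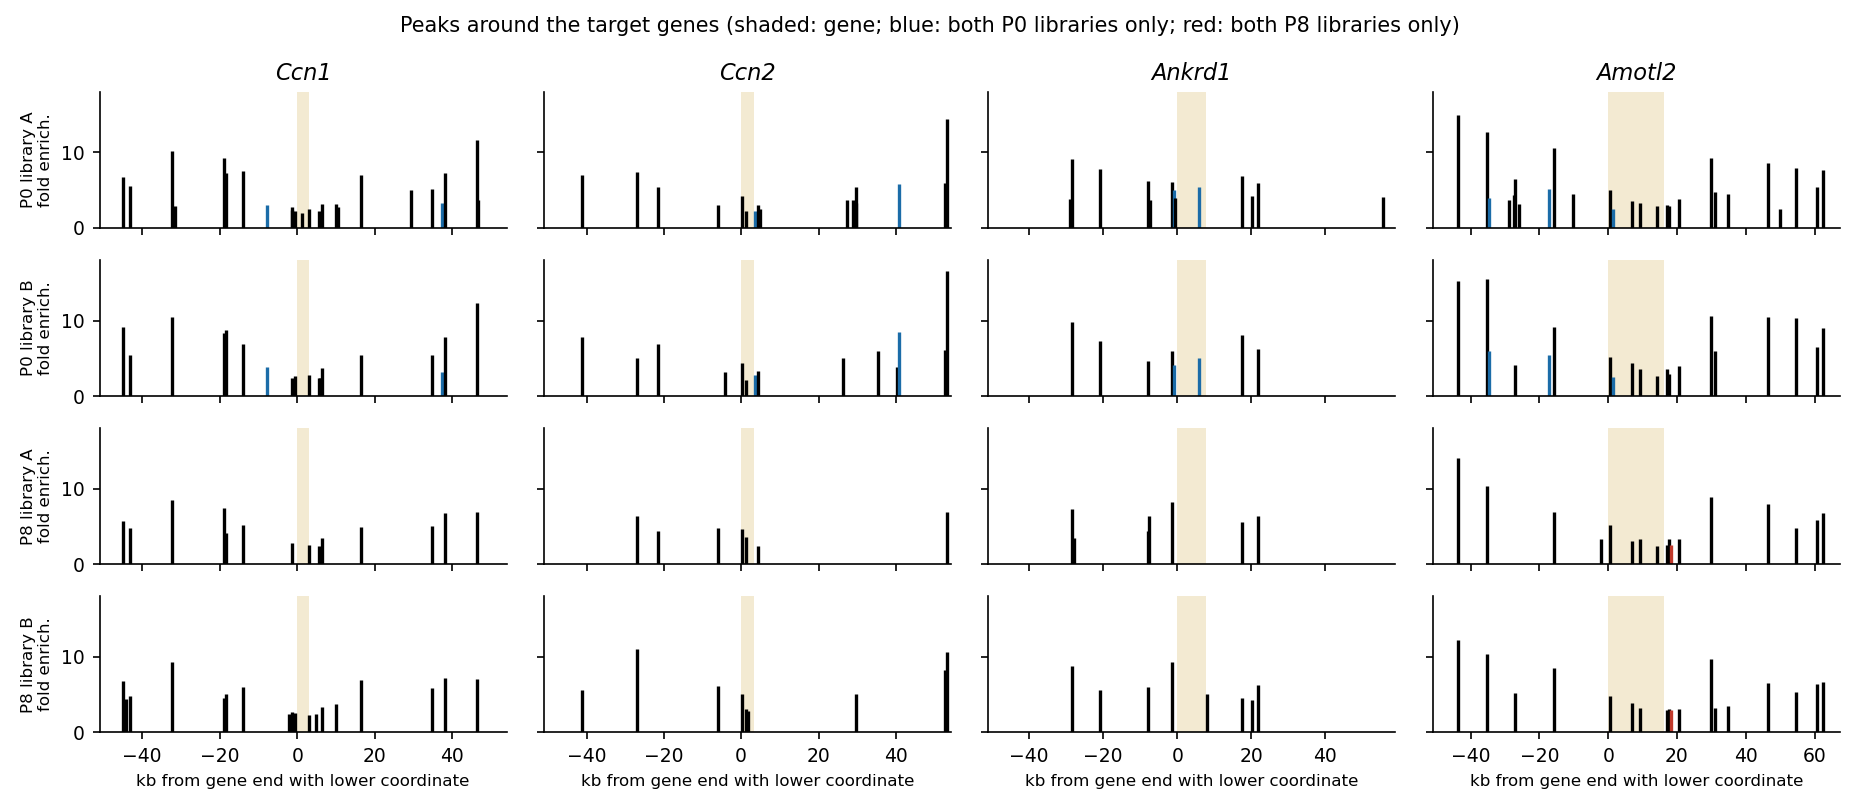
Fold enrichment of each peak (vertical axis) in the 4 libraries (rows) by distance in kb from the gene end with the lower coordinate (horizontal axis) for Ccn1, Ccn2, Ankrd1 and Amotl2, with genes shaded, P0-only sites in blue and the P8-only site of Amotl2 in red. The peaks at Ccn1 and Ccn2 are low, between 2.11 and 5.14 at their start or lower ends and inside Ccn2, and Ankrd1 has no peak in the gene in either P8 library.

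The calls at single sites depended on the library set and on the scale. Without centring, 5 of the 9 stood, at Wwtr1, Tead2, the 2 Ccn2 sites and the Tead1 site that fell. With the pileup over the genome-wide background in place of the fold enrichment, 6 stood, and the sites in Ccn2, downstream of Ccn1 and upstream of Tead2 did not. Leaving out P0 library B ended every call but that at Wwtr1, and leaving out P0 library A every call but those in Ccn2 and in Tead1. Leaving out P8 library A ended the calls at the Enpp1 site, at Tead2 and at the more distant Tead1 site that rose, and leaving out P8 library B ended none.

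Low fold enrichment at Ccn1 and Ccn2 went with a high local background. The local background of a peak, recovered from its pileup and fold enrichment, is the number of tags in the 10 kb around it, and its ratio to the genome-wide background of the library is called tag density here. For each gene the highest tag density of any peak in the gene or within 1 kb of it was taken. This quantity was added after the data had been seen. Ccn1 stood at 16.3, 14.3, 12.3 and 15.3, Amotl2 at 15.2, 13.8, 11.9 and 13.8, and Ccn2 at 11.9, 11.2, 7.25 and 8.82. These 3 genes were above the 99th percentile of all genes with such a peak in every library, where that percentile was 9.06, 8.67, 6.96 and 7.72. Ccn1 and Amotl2 overlapped between the passages, while both P0 values of Ccn2 were above both P8 values, as at 74.1% of the 14926 genes with a value in every library. Ankrd1 was at the other extreme, with 1.27 in P0 library A, a ratio of 1, the genome-wide background itself, in P0 library B and P8 library B, and no peak in P8 library A.

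**Figure D5:**
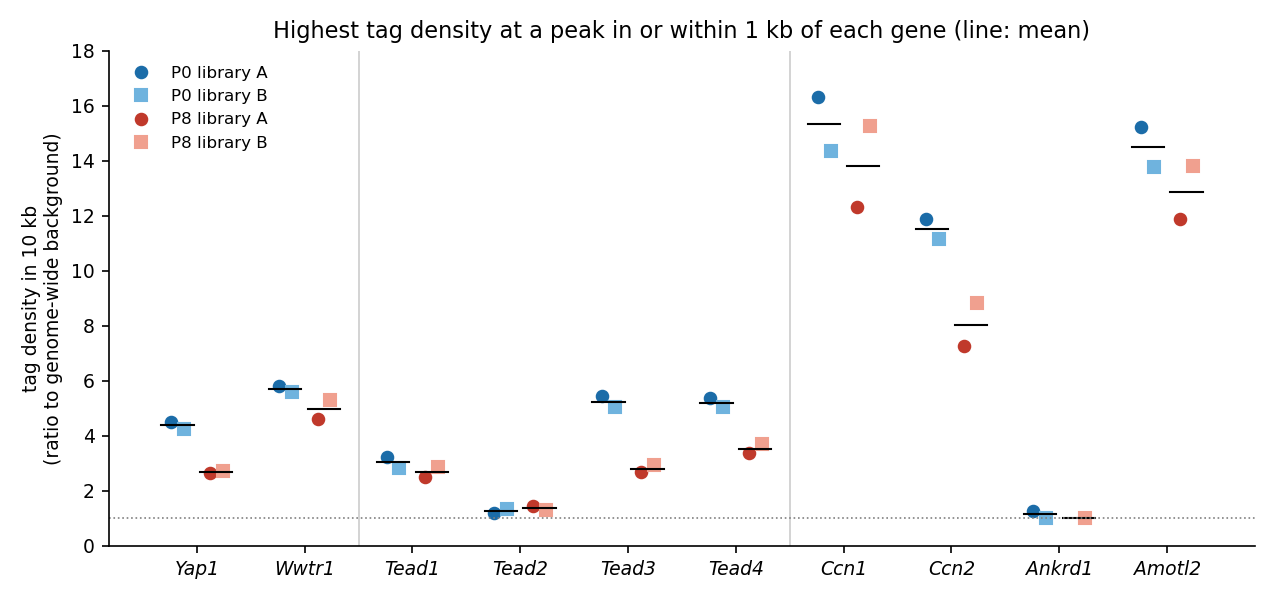
Highest tag density in 10 kb at a peak in or within 1 kb of each gene, as a ratio to the genome-wide background of the library (vertical axis), with 1 point per library, a line at the mean of a passage and a dotted line at 1. Ccn1, Amotl2 and Ccn2 lie above 7 in all libraries, and Yap1, Wwtr1, Tead3, Tead4 and Ccn2 are lower at P8 without overlap before centring.

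Among the regulators, Wwtr1 had the highest tag density, 5.82, 5.59, 4.60 and 5.31, and lay between the 93.4th and 95.7th percentile of all genes. Yap1 had 4.50 and 4.26 at P0 and 2.64 and 2.70 at P8. Tead3 had 5.43 and 5.05 at P0 and 2.66 and 2.94 at P8, and Tead4 had 5.37 and 5.03 against 3.37 and 3.69. For these 4 genes and for Ccn2, 5 of the 9 genes with a value in every library, both P0 values were above both P8 values, beside the 74.1% of all genes, and at none of the 9 were both P8 values above both P0 values, beside 7.4% of all genes. Tead1, at 3.23, 2.84, 2.51 and 2.86, and Tead2, at 1.20, 1.34, 1.44 and 1.31, overlapped between the passages. At Tead1, however, the value of P0 library A came from the site at the lower gene end, and both P8 values from the strongest site inside the gene. At the lower end tag density was 3.23, 2.81, 2.29 and 2.62, with P0 above P8. At the strongest site it was 2.49, 2.31, 2.51 and 2.86, with P8 above P0. A limma fit over 14926 genes, which needs a value in every library and so leaves out Ankrd1, called 4 of the other 9 genes lower at P8 relative to the median gene, beside 16.1% of all genes. They were Yap1 (log2 difference −0.40, SE 0.07, adjusted p = 0.000522), Tead3 (−0.58, SE 0.06, adjusted p = 1.2e-05), Tead4 (−0.24, SE 0.06, adjusted p = 0.00681) and Ccn2 (−0.21, SE 0.07, adjusted p = 0.0282). At Tead3 the passages took their values from different sites. The P0 values were those of the P0-only site near the lower end of the gene (chr17:28332023-28332136). At the start site, held by all 4 libraries, tag density was 3.48, 2.98, 2.65 and 2.88. At the other such site in Tead3 (chr17:28340599-28341495) it was 2.66, 2.57, 2.66 and 2.87. Tead2 was called higher (0.44, SE 0.12, adjusted p = 0.0118), beside 20.8% of all genes, with its passages overlapping before centring. Tag density cannot fall below the genome-wide background, and Tead2 lay close to it. Its difference without centring was 0.12 (limma adjusted p = 0.285). Without centring, when the median gene stood at −0.30, the same 4 genes were called lower, beside 53.7% of all genes, and none was called higher, beside 3.39%. Leaving out P0 library A, P0 library B or P8 library A ended the call of Ccn2, and leaving out P0 library A also those of Tead4 and Tead2. The calls of Yap1 and Tead3 stood in every fit. Each fit used the same value per library, however, so at Tead3 each compared the passages at different sites.

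Other pathway genes, in a pair of lists, were read against the same fit of peak numbers. Of 20 genes of the Hippo core and its regulators, 3 were called lower (8.4% of all genes) and 1 higher (2.32% of all genes) at P8, with a median log2 difference of −0.16 where all genes had −0.03. Lower were Nf2, which encodes merlin, an upstream activator of the pathway (23, 17, 6 and 11 peaks, log2 difference −0.88, SE 0.19, limma adjusted p = 0.000301), the scaffold gene Wwc2 (38, 33, 19 and 19 peaks, −0.56, SE 0.15, adjusted p = 0.00399) and Stk4, which encodes the kinase MST1 (28, 22, 13 and 15 peaks, −0.48, SE 0.16, adjusted p = 0.0320). Lats2, a kinase gene whose product phosphorylates YAP and which is itself a YAP target, had 16 and 14 peaks at P0 and 18 and 20 at P8 (0.63, SE 0.17, adjusted p = 0.00469). Lats2 was the only gene of either list, and of the 10 genes above, at which each P8 library exceeded each P0 library. Of 20 other reported YAP and TAZ target genes, Arhgef17 was called lower (37, 25, 12 and 19 peaks, −0.66, SE 0.15, adjusted p = 0.00123) and none higher, beside the same 8.4% and 2.32%, with a median of −0.01. Both P0 libraries were above both P8 libraries at 13 of these 20 genes, for example at Igfbp3 (13, 9, 5 and 5 peaks) and Nt5e (18, 16, 10 and 10 peaks), and at 9 of the 20 Hippo genes, beside the 50.7% of all genes. Without centring no gene of either list was called, nor any gene of the genome, so these calls are relative to the median gene. The signs at the called genes stayed the same without centring (Nf2 −1.18, Wwc2 −0.86, Stk4 −0.79, Arhgef17 −0.96 and Lats2 0.32). The calls were likewise lost in every fit that left out 1 library.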

How the data were processed

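ATAC-seq peaks of 4 libraries were analysed, 2 at P0 and 2 at P8. The authors aligned 50 bp paired-end reads with Bowtie2 to mm10, the primary assembly of GRCm38, and ran MACS2 on every library separately, per the labels and the study's methods (versions are not given in the sources used here). Deposited for each peak were the pileup (signal, in tags, not scaled for depth), the fold enrichment (ratio) and the −log10 p-value. A further deposited table holds the authors' DiffBind log2 fold changes, p-values and FDR and was not used. No column of values per library was left unused (0 columns).

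Libraries were separated by peak name. The local background was recovered from pileup and fold enrichment, and 100% of the −log10 p-values then matched a Poisson value within 0.01. Peaks overlapping by at least 1 bp were merged into sites, and a site took the highest peak of each library. Gene positions and promoters came from RefSeq GRCm38.p6, whose gene table carries no strand or exons, so introns and exons are not told apart. Log2(peaks + 1) per gene (genes with a mean of at least 2 peaks), log2 fold enrichment at sites held by all libraries, and log2 tag density were centred on each library's median and fitted with limma 3.58.1 (R 4.3.3, eBayes with trend, Benjamini-Hochberg threshold 0.05). Totals were compared by exact two-sided permutation tests (Python 3.11.15, scipy 1.17.1). In simulated data at these sizes limma called 75% of 100 genes changed by 1 on the log2 scale among 18605 (peak numbers) and 88% of 100 sites among 55294 (fold enrichment). The simulated noise was Gaussian, independent and alike for features of similar mean, so these shares need not hold for the real libraries.

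The 10 genes, the lists and the tests were chosen with earlier results of these data known. Named were all 10 genes, at each the strongest site, the strongest at a gene end, sites of both libraries of 1 passage alone (at most 3 where a gene had over 6) and sites called by limma, and of the lists the called genes and up to 3 per direction with the largest ratio among genes whose passages did not overlap.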

Additional observations from a re-analysis of the deposited data

How the results depend on the processing

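No paired analysis was possible because the peak names carry no replicate number. The ratio of peaks near the 10 genes at P0 to P8 was between 1.27 and 1.48 in windows of 10 and 100 kb, at matched background and above the median fold enrichment, and from 1.29 to 1.47 when 1 library was left out. Sites held by every library, by P0 alone and by P8 alone numbered 52, 23 and 2 within 10 kb and 44, 22 and 2 above the median fold enrichment, and within 100 kb 145 were held by every library and 57 by P0 alone. With 1 library left out they were 92 to 107, 49 to 79 and 10 to 20, since fewer libraries had to hold a peak.

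Over all genes, the number of peaks called 1563 lower and 432 higher at P8, and 447 and 14 above the median fold enrichment, 868 and 1500 without the filter, and 0 and 0 without centring, with quantile normalization, in 10 kb windows and, for every library left out, from 0 to 0. The sign of uncalled members changed above the median fold enrichment (Yap1 −0.31, Tead1 −0.50, Tead2 0.076), at matched background (Tead2 0.031, Ankrd1 0.0093), without centring (Yap1 −0.27, Tead1 −0.16), without the filter (Tead2 0.098, Ccn1 0.051, Ankrd1 0.11, Amotl2 0.12), with quantile normalization (Amotl2 0.038), in 10 kb windows (Tead1 −0.055, Tead2 0.51, Tead3 0.10, Ccn2 0.37, Ankrd1 0.021, Amotl2 0.52), in 100 kb windows (Tead2 0.054, Ankrd1 0.27, Amotl2 0.091) and with 1 library left out (Yap1 −0.25 to 0.31, Tead2 −0.12 to 0.022, Ccn1 −0.33 to 0.15, Ankrd1 −0.19 to 0.13, Amotl2 −0.13 to 0.088). The cause was not tested.

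Fold enrichment at sites held by all libraries called 3 lower and 6 higher near the 10 genes and 2079 and 3447 in the genome. These became 0 and 1, with 911 and 654, among sites above the median fold enrichment, 13 and 2, with 6516 and 589, without centring, and 1 and 3, with 1274 and 1379, for pileup over the local background. Pileup over the genome-wide background, chosen after seeing the data, gave 11 and 12, with 4942 and 7547, and without centring 26 and 3, with 11795 lower in the genome. Without the variance trend 1 was lower near the genes, and with quantile normalization 1 was lower near the genes and 1328 were higher in the genome. Leaving out 1 library gave 0 to 6 lower and 1 to 8 higher near the genes, and 55 to 3059 and 134 to 4413 in the genome, fewest without P0 library B.

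Tag density called 2406 genes lower and 3106 higher. Without centring 8009 were lower, 506 higher, and of the 10 genes 0 higher, and Wwtr1 (−0.21), Tead1 (−0.18), Ccn1 (−0.16) and Amotl2 (−0.18), none called, changed sign. Leaving out 1 library gave 2 to 4 lower and 0 to 1 higher of the 10 genes, and 1402 to 2861 and 1708 to 3610 of all genes.

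Depth limits weak sites, whose summits held as few as 6 tags, so the absence of a peak in a library does not show closed chromatin.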

Other observations

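The tag density of 2 other target genes of YAP and TAZ, chosen after their values were seen, was higher at P8 relative to the median gene. Thbs1, which encodes the matricellular protein thrombospondin 1, had the highest tag density of the 20 other target genes, 21.3 and 17.1 at P0 and 25.0 and 28.9 at P8 (log2 difference from the median gene 0.81, limma adjusted p = 3.0e-05, and 0.0722 without centring). Tagln, which encodes the actin-binding protein transgelin of smooth muscle and contractile fibroblasts, had 2.78 and 2.33 at P0 and 3.66 and 3.82 at P8 (0.87, limma adjusted p = 2.6e-06, and 0.00475 without centring). At both genes the tag density of each P8 library was above that of each P0 library, as at 7.4% of all genes, but without centring only the call of Tagln stood. The number of peaks went the other way at Thbs1 (15, 15, 9 and 11 peaks). At Tagln it overlapped between the passages (14, 11, 12 and 10 peaks). Over all 20 other target genes the fit of tag density called 8 higher, beside 20.8% of all genes, and 5 lower at P8, beside 16.1%, and without centring 1 higher and 8 lower, beside 3.39% and 53.7%. Over the 20 Hippo genes it called 4 higher and 4 lower, and without centring none higher and 11 lower.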
